A study of Saccharomyces cerevisiae BY4741 with 4 samples.

Results

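The RNAs described here are the small nuclear RNAs (snRNAs) of the spliceosome and the RNAs of the signal recognition particle, RNase P, RNase MRP and telomerase of the budding yeast Saccharomyces cerevisiae. They were taken by name from a deposited table of read counts. Of the 10 RNAs named, 8 had a row of their own among the 7382 features of the table, and these were LSR1, snR6, snR7-L, snR14, snR19, SCR1, RPR1 and NME1. The short U5 form snR7-S had no row of its own but shared one, under a joined name, with snR7-L, and the telomerase RNA TLC1 was not analysed here. The strain was BY4741, a haploid derivative of S288C of mating type a with auxotrophic deletions, labelled wild type. Its cells were grown in rich YPD medium at 30 °C from an optical density (OD600) of 0.05 to 0.6. Total RNA (2 libraries) was compared with poly(A) RNA (2 libraries), the latter bound to oligo-dT beads and then treated with RiboZero Gold to remove rRNA. Both groups came from hot acidic phenol extraction with DNase I treatment, and libraries were made from 50 ng of fragmented RNA with random hexamers and sequenced as single 50-base reads.

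These RNAs work as the cores of stable ribonucleoprotein particles and are known to end without the long poly(A) tail of an mRNA. In the spliceosome U1 recognises the 5′ splice site, U2 the branch point, and the U4, U5 and U6 particles join as a tri-snRNP, after which U6 replaces U1 at the 5′ splice site. SCR1 scaffolds the particle that takes nascent secretory proteins to the endoplasmic reticulum, RPR1 is the catalytic RNA of RNase P, which trims the 5′ end of tRNA precursors, and NME1 belongs to RNase MRP, which cuts the rRNA precursor. RNA polymerase III makes snR6, SCR1 and RPR1, and RNA polymerase II makes the others.

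The 3 shortest snRNA sequences with a row of their own are shown whole. Those rows had the lowest counts of the members, and that of snR7-L covers only part of U5, as described below. The sequences were read from the RefSeq genome of build R64, the build named in the submitters' processing notes, in DNA letters and 5′ to 3′. In snR6 the capitals mark the ACAGAGA box that pairs with the 5′ splice site. In snR14 they mark ATTTTTNG, a letter pattern for the site of the Sm protein ring. In snR7-L the first capitals mark loop 1, which holds the exons, and the second the same Sm pattern.
snR6, U6, chrXII:366235-366346, plus strand: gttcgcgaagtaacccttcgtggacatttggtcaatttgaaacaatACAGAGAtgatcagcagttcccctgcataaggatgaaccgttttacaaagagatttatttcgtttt
snR14, U4, chrV:167427-167586, minus strand: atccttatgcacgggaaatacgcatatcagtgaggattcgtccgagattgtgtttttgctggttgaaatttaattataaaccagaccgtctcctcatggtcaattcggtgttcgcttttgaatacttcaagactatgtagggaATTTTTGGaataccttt
snR7-L, U5 long form, chrVII:939459-939672, minus strand: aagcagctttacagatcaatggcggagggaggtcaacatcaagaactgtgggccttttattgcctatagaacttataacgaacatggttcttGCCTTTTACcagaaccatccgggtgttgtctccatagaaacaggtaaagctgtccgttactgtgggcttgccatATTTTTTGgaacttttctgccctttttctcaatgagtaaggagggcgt

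The 5′ ends of the abundant snRNAs carry the sequences with which they pair to the intron. In snR19 the capitals mark ACTTACCT, which pairs with the 5′ splice site, and in LSR1 they mark GTAGTA, which pairs with the branch point.
snR19, U1, first 40 bases, chrXIV:230633-230672, minus strand: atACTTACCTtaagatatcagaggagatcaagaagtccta
LSR1, U2, first 60 bases, chrII:681803-681862, minus strand: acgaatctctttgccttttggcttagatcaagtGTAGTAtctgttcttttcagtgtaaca

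Each of these patterns occurred 1 time in its RNA and 0 times on its other strand. Of nuclear genome windows as long as the RNA, 1.33% held ACTTACCT on either strand, 43.2% GTAGTA, 1.54% ACAGAGA and 0.142% GCCTTTTAC. The pattern ATTTTTNG was searched in all 8 RNAs. It occurred 1 time each in snR14 and snR7-L and 2 times each in LSR1 and snR19, but in none of snR6, SCR1, RPR1 and NME1. The matches began at bases 112 and 582 of the 1175 of LSR1, and at 224 and 241 of the 568 of snR19. The pattern asks for 1 further base between ATTTTT and G. It therefore passes over the stretch atttttg in the last 40 bases of snR19, which are printed below. Whether a match, or that stretch, is the site that the Sm ring binds was not tested. Windows of the length of snR14 and snR7-L held it in 7.27% and 9.72% of cases, and those of the length of snR19 and LSR1 in 24.1% and 43.6%.

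Because poly(A) RNA was bound by oligo-dT, runs of A inside the RNAs were also read from the genome. The longest run was 7 bases in LSR1, 5 in snR19 and NME1, and 3 in SCR1, RPR1, snR14, snR6 and snR7-L. The 4 runs below, in capitals with 15 bases on each side, belong to RNAs whose levels are compared later.
LSR1, bases 893 to 929, chrII:680934-680970, minus strand: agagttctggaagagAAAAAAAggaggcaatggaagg
snR19, bases 496 to 530, chrXIV:230143-230177, minus strand: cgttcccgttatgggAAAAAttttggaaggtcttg
NME1, bases 112 to 146, chrXIV:585698-585732, plus strand: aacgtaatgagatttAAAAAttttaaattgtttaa
SCR1, bases 42 to 74, chrV:442028-442060, plus strand: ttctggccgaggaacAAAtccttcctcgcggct

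A run of 7 A was present in 42.5% of genome windows as long as LSR1, and a run of 5 A in 77.2% and 60.4% of windows as long as snR19 and NME1. Runs of 3 A were in 99.9% of windows as long as SCR1. No annotated RNA of the 8 ended in A. The last 40 bases of SCR1 (chrV:442469-442508, plus strand), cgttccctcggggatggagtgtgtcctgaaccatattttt, ended in 5 T, and those of snR19 (chrXIV:230105-230144, minus strand), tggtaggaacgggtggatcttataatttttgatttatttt, in 4 T. In all 8 RNAs 0% of the 50-base stretches occurred elsewhere in the genome, and none overlapped another annotated gene apart from the U5 forms. A read of 50 bases that matched exactly thus had 1 place, while reads with mismatches or of shorter length were not checked.

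The libraries differed in what filled them. Total RNA replicates 1 and 2 held 53746838 and 75955489 counts, of which 96.4% fell on rRNA in each, so 1944442 and 2721084 counts lay outside rRNA. Poly(A) replicates 1 and 2 held 52851542 and 53180654 counts, with 0.0491% on rRNA in each. STE2, the receptor that a cells carry, had 57429 and 62048 counts in the poly(A) libraries, against 302 and 326 for STE3, its counterpart in alpha cells.

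The question put to these RNAs was how far each was carried into the purified poly(A) fraction. The 8 members together held 163096 and 216142 counts in total RNA against 11101 and 12287 in poly(A) RNA. As a share of all counts that was 0.303% and 0.285% for total RNA, against 0.0210% and 0.0231% for poly(A) RNA, a mean 13.3-fold lower in poly(A) RNA. As a share of counts outside rRNA they held 8.17% ± 0.314 (SD, n = 2) in total RNA against 0.0221% ± 0.00149 in poly(A) RNA, 370-fold lower. Both poly(A) libraries lay below both total RNA libraries on either scale. In an exact permutation test, two-sided, p was 0.333 on each scale, the smallest that 2 against 2 libraries can give.

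**Figure D1:**
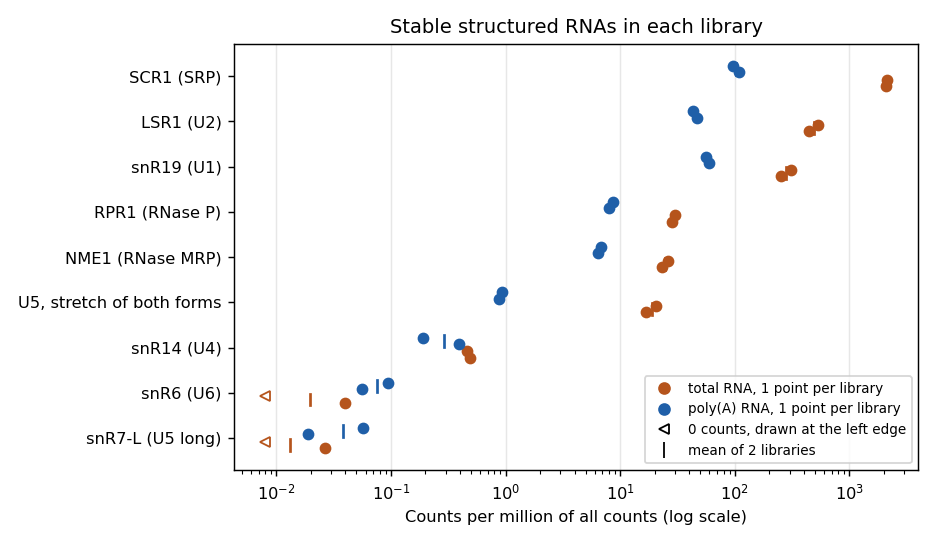
Counts per 1000000 of all counts (CPM, horizontal, log scale) of the 8 members and of the joined U5 row, 1 point per library, with vertical bars at the mean of 2 libraries. SCR1 is highest in both fractions, and the poly(A) points lie left of the total RNA points for all but snR6 and snR7-L.

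The RNA of the signal recognition particle was the most abundant. SCR1 (chromosome V, 441987 to 442508, 522 bases) had 115003 and 159285 counts in total RNA against 5047 and 5820 in poly(A) RNA. In both total RNA libraries it ranked 1 among the 6745 single features outside rRNA, and in the poly(A) libraries it ranked 1914 and 1705. In CPM of all counts it stood at 2118 ± 30.1 in total RNA against 102.5 ± 9.86 in poly(A) RNA (SD, n = 2 each), 20.7-fold lower. The fractions did not overlap, and the total RNA replicates lay close together.

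Of the snRNAs, U2 and U1 were abundant. LSR1 (chromosome II, 680688 to 681862, 1175 bases) had 28563 and 33542 counts in total RNA against 2264 and 2504 in poly(A) RNA. Its level was 487 ± 63.5 and 45.0 ± 3.004 CPM of all counts, 10.8-fold lower in poly(A) RNA. The U1 snRNA snR19 (chromosome XIV, 230105 to 230672, 568 bases) had 16481 and 19383 counts in total RNA against 2952 and 3171 in poly(A) RNA. That was 281 ± 36.4 and 57.7 ± 2.67 CPM, 4.87-fold lower. For both RNAs the fractions did not overlap. Total RNA replicate 1 was the higher of the total RNA libraries for both, at 531 against 442 CPM for LSR1 and 307 against 255 for snR19, a gap that SCR1 did not show, with 2140 against 2097.

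The RNAs of the related enzymes RNase P and RNase MRP, which share most of their proteins, had similar levels. RPR1 (chromosome V, 117667 to 118035, 369 bases) had 1622 and 2147 counts in total RNA against 458 and 424 in poly(A) RNA, or 29.2 ± 1.35 and 8.32 ± 0.490 CPM of all counts. NME1 (chromosome XIV, 585587 to 585926, 340 bases), which the table lists as a snoRNA, had 1402 and 1743 against 362 and 343 counts, or 24.5 ± 2.22 and 6.65 ± 0.283 CPM. The fractions did not overlap for either, and poly(A) RNA was 3.51-fold lower for RPR1 and 3.69-fold lower for NME1.

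The rows of the shortest snRNAs held few reads in any library. snR14 (chromosome V, 167427 to 167586, 160 bases), the U4 snRNA that escorts U6 into the tri-snRNP, had 25 and 37 counts in total RNA against 10 and 21 in poly(A) RNA. Its shares of 0.465 and 0.487 CPM in total RNA lay above 0.189 and 0.395 in poly(A) RNA, but the poly(A) replicates differed by more than the nearer poly(A) library did from total RNA. snR6 (chromosome XII, 366235 to 366346, 112 bases) had 0 and 3 counts in total RNA against 5 and 3 in poly(A) RNA. The row of snR7-L had 0 and 2 counts in total RNA against 3 and 1 in poly(A) RNA.

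For snR6 the direction depended on the scaling. With library totals the poly(A) to total ratio was 3.26 (95% counting interval 0.783 to 19.1), and with the TMM effective library sizes described below it was 0.0821 (0.0197 to 0.480). For snR7-L these ratios were 2.45 (0.351 to 27.0) and 0.0616 (0.00882 to 0.681). The intervals are exact binomial ones and cover counting error only, and with library totals both include 1, so no difference was detectable at this depth on that scale.

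The row of snR7-L covers only the 35 bases that the long form has beyond the short one (chromosome VII, 939459 to 939493), which is less than a 50-base read. That stretch reads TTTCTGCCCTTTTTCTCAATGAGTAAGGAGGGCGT, all of it specific to the long form. The remaining U5 reads are in the joined row for the 179 bases that both forms share (939494 to 939672), which had 1111 and 1282 counts in total RNA against 49 and 47 in poly(A) RNA. In CPM of all counts the joined row stood at 18.8 ± 2.68 and 0.905 ± 0.0307, 20.7-fold lower in poly(A) RNA and without overlap. The long and the short form of U5 were thus not told apart.

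In a test across all features with edgeR, all 6 members that passed the filter on low counts (LSR1, snR14, snR19, SCR1, RPR1 and NME1) were lower in the poly(A) fraction, with adjusted p below 0.05. Of all 6945 features tested, 31.2% were lower and 31.0% higher. snR6 and snR7-L did not pass the filter. With no such filter snR6 was narrowly called lower (log2 fold change -3.51, SE 1.39, adjusted p = 0.0450) and snR7-L was not (-3.85, SE 1.72, adjusted p = 0.0717). The filter asks for enough reads in 2 libraries whichever fraction they belong to. The log2 fold changes are set against the typical feature by TMM, a scaling that sets aside features with extreme ratios, so they describe relative level and not RNA per cell. The fold changes compare fractions of RNA from the same strain grown alike, each library made from 50 ng, and not different cells.

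SCR1 had the lowest fold change of the members. Its normalised level was 13207 and 13459 in total RNA, against 15.3 and 17.3 TMM-normalised CPM in poly(A) RNA, a log2 fold change of -9.68 (SE 0.11, edgeR adjusted p = 3.12e-25), or 819-fold lower. LSR1 fell by 8.74 on the log2 scale (SE 0.11, adjusted p = 1.67e-24) and snR19 by 7.59 (SE 0.10, adjusted p = 5.65e-24), 428-fold and 192-fold lower. NME1 fell by 7.19 (SE 0.10, adjusted p = 1.53e-23) and RPR1 fell by 7.12 (SE 0.10, adjusted p = 9.66e-24), 146-fold and 139-fold lower. snR14 had -5.999 (SE 0.39, adjusted p = 1.54e-11). With library totals in place of TMM, snR14 stood at -0.70 and no longer passed (adjusted p = 0.0746), whereas SCR1 was at -4.37, LSR1 at -3.44, snR19 at -2.28, NME1 at -1.88 and RPR1 at -1.81, all 5 past the test. The joined U5 row, tested in the same fit, had -9.67 (SE 0.14, adjusted p = 7.8e-24), close to SCR1.

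The median log2 fold change was -7.39 over the 6 members tested and 0.044 over all features tested. Outside rRNA, 9 features had a lower fold change than SCR1. The snoRNAs among them were the U3 snoRNA snR17a at -10.32 (SE 0.11) and snR190 at -9.72 (SE 0.13). The rest were the mitochondrial COB and COX3, joined mitochondrial rows, and the reading frames RRT15, YLR154W-E and YLR154W-F. Features were set outside rRNA by their annotation, and whether reads on these reading frames come from rRNA was not tested. LSR1 had 15 features outside rRNA below it, snR19 20, NME1 25, RPR1 27 and snR14 42.

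**Figure D2:**
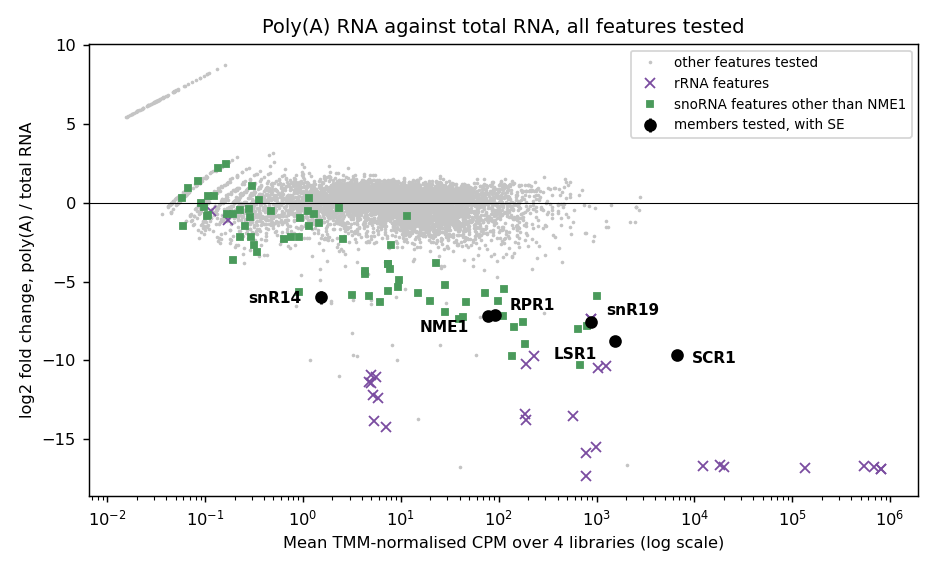
Log2 fold change of poly(A) over total RNA (vertical) against the mean TMM-normalised CPM over 4 libraries (horizontal, log scale), 1 point per feature tested. The 6 members tested, black with SE bars, lie between -9.68 and -5.999, below most features and among the snoRNAs (green) and above most rRNA features (purple).

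The members did not go down together in fixed proportion, and this can be read without any scaling between libraries, from the ratio of their counts within each library. SCR1 carried 70.5% and 73.7% of the counts of the 8 members in total RNA but 45.5% and 47.4% in poly(A) RNA. The share of snR19 was 10.1% and 8.97% in total RNA against 26.6% and 25.8% in poly(A) RNA, and that of LSR1 17.5% and 15.5% against 20.4% in each poly(A) library. RPR1 had 0.995% and 0.993% against 4.13% and 3.45%, and NME1 0.860% and 0.806% against 3.26% and 2.79%.

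**Figure D3:**
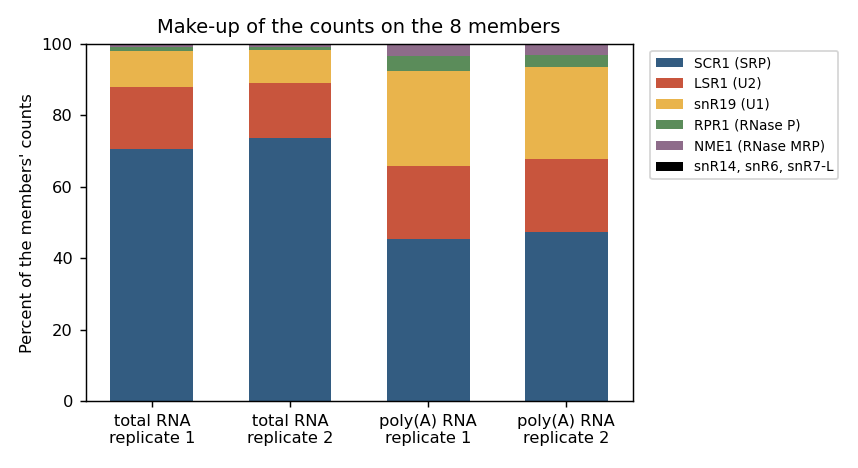
Percent of the counts on the 8 members that each one held (vertical, from 0 to 100), 1 stacked bar per library. SCR1 takes 70.5% and 73.7% in the total RNA bars and 45.5% and 47.4% in the poly(A) bars, where the part of snR19 is larger.

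Between the U2 and the U1 snRNA the order of counts turned. LSR1 had 1.73 counts for each count of snR19 in total RNA replicates 1 and 2 alike, against 0.767 and 0.790 in poly(A) RNA, a shift of -1.15 on the log2 scale, where the largest gap between replicates was 0.042. These counts are not divided by length, and per length snR19 was the higher in both fractions, as given below. Length is the same in both fractions and leaves the shift unchanged. SCR1 had 70.9 and 74.2 counts for each count of RPR1 in total RNA against 11.02 and 13.7 in poly(A) RNA, a shift of -2.56. The ratio of RPR1 to NME1 was 1.16 and 1.23 in total RNA against 1.27 and 1.24 in poly(A) RNA. That shift of 0.067 was smaller than the largest replicate gap of 0.090.

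Of the 15 pairs among the 6 members with at least 10 counts in every library, 12 shifted by more than their largest replicate gap. The 3 that did not were RPR1 to NME1, snR14 to RPR1 and snR14 to NME1. The 15 pairs come from 6 RNAs and are not independent, and pairs of other features were not counted beside them. snR14 had 0.0154 and 0.0172 counts for each count of RPR1 in total RNA against 0.0218 and 0.0495 in poly(A) RNA, so the poly(A) replicates were far apart. That shift of 1.01 ran from 0.42 without poly(A) replicate 2 to 1.60 without poly(A) replicate 1. Each pair had an exact two-sided permutation p of 0.333, also after adjustment over the 15 pairs, and the design allows no smaller one. With the joined U5 counts added to snR7-L, U5 had 0.0674 and 0.0662 counts for each count of snR19 in total RNA against 0.0176 and 0.0151 in poly(A) RNA. Against SCR1 it had 0.00966 and 0.00806 in total RNA against 0.0103 and 0.00825 in poly(A) RNA, values that overlapped.

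Levels per length differed widely between the members. In CPM of the counts outside rRNA, divided by the annotated length in kilobases, SCR1 stood at 112722 ± 822 in total RNA, snR19 at 13732 ± 1684, LSR1 at 11500 ± 1422, the U5 joined row at 2912 ± 396, RPR1 at 2199 ± 86.5, NME1 at 2002 ± 167, snR14 at 82.7 ± 3.27 and snR6 at 0 and 9.84 (SD, n = 2). Each of the neighbours snR19 and LSR1 varied between replicates by about as much as they differed from each other. Within a library, however, snR19 was the higher both times, at 14922 against 12502 and 12541 against 10491, and so was RPR1 over NME1, at 2261 against 2121 and 2138 against 1884. In poly(A) RNA the order was SCR1 at 196.4 ± 18.9, snR19 at 101.7 ± 4.70, LSR1 at 38.3 ± 2.56, RPR1 at 22.6 ± 1.33, NME1 at 19.6 ± 0.832, the U5 row at 5.06 ± 0.171, snR14 at 1.83 ± 0.909 and snR6 at 0.675 ± 0.241. Among them snR19 stood below the shorter SCR1 in both fractions, and the U5 row stood above RPR1 and NME1 in total RNA and below them in poly(A) RNA. The snRNAs are known to enter an assembling spliceosome in equal numbers, which does not fix their levels in the cell. Per length the mean level in total RNA was 13732 for U1, 11496 for U2, 2912 for U5, 82.7 for U4 and 4.92 for U6. The reason for this spread was not tested.

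Over 7 members, without snR7-L, Spearman's rho between length and level per length was 0.857 in total RNA against 0.857 in poly(A) RNA, as a description of RNAs that share the libraries. Small nucleolar RNAs, which guide the modification and cutting of rRNA, were set beside them. Over 76 snoRNAs rho was 0.773 in total RNA against 0.363 in poly(A) RNA. The 40 snoRNAs of up to 150 bases had a median of 2 and 4.5 counts in total RNA, against 42.5 and 47 in poly(A) RNA. These are raw counts, and of the 35 short snoRNAs tested with edgeR, 12 were lower and 0 higher (median log2 fold change -0.71). The 24 snoRNAs of 151 to 250 bases, a range that holds snR14, had medians of 141.5 and 156 counts in total RNA against 150.5 and 186. Of these 24, 23 were lower in the edgeR test (median -5.10), beside 31.2% of all features. The 12 of more than 250 bases had 2894 and 3657 in total RNA against 544.5 and 578.5 in poly(A) RNA. The part that length has in the members' levels and fold changes was not tested.

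**Figure D4:**
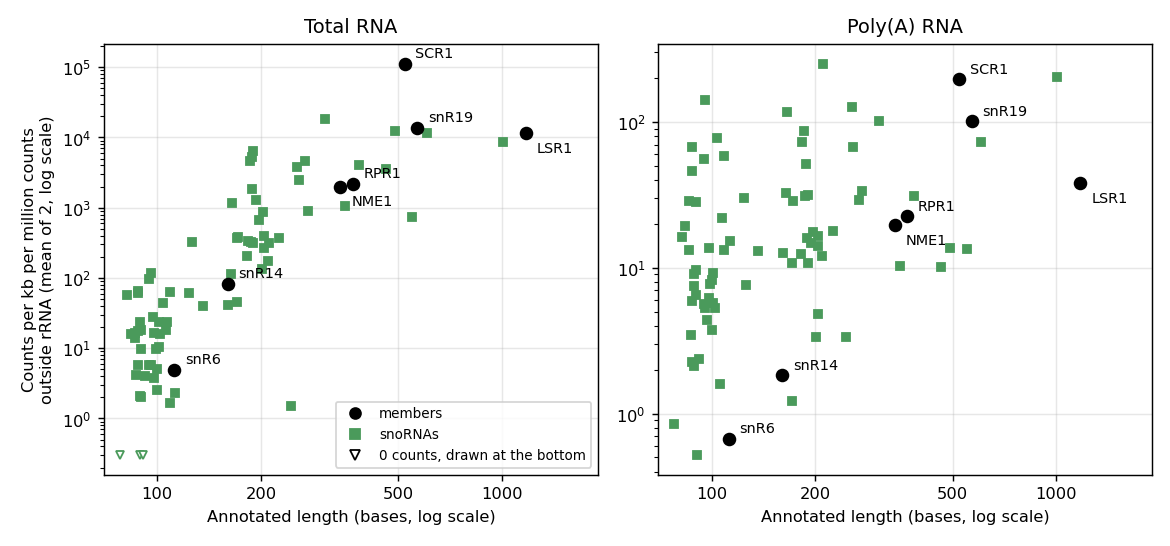
CPM of the counts outside rRNA per kilobase (vertical, log scale, mean of 2 libraries, with different ranges in each panel) against annotated length (horizontal, log scale) for 7 members (black) and 76 snoRNAs (green), with 0 counts drawn as open triangles. In total RNA snR6 and snR14 lie with the short snoRNAs and SCR1 above all others, at 112722.

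The 12 snoRNAs of more than 250 bases were all lower in poly(A) RNA, with log2 fold changes from -10.32 to -5.24 and a median of -7.38, beside -7.59 for the 5 members of more than 250 bases, which ran from -9.68 to -7.12. Likeness was searched among 2895 single features outside rRNA that averaged 10 or more normalised CPM. It was the distance between the log2 levels of the 4 libraries, each centred on its mean. Features low in poly(A) RNA could reach that limit through total RNA alone. With 2 libraries per fraction the distance rests mainly on the fold change, so the near fold changes given here follow from the measure. Nearest to snR19 were the snoRNAs snR37 (distance 0.108, log2 fold change -7.55) and snR30 (0.255, -7.82), and nearest to LSR1 were snR17b, the second U3 copy (0.275, -8.97), and snR83 (0.742, -8.02). For SCR1 they were snR190 (0.217) and snR17a (0.661), and for snR14 snR34 (0.552, -6.21) and snR46 (0.621, -5.75). By its own level snR14 lay below the limit, at 2.87 and 3.13 normalised CPM in total RNA against 0.030 and 0.062 in poly(A) RNA. Features as low as snR14 were therefore not searched. RPR1 and NME1 had the same nearest features, snR42 (0.145 and 0.153, -7.22) and the mitochondrial intron-encoded reading frame AI1 (0.156 and 0.104, -7.27).

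The mRNAs of proteins that bind or make these RNAs stood near the typical feature, with more higher than lower. Of 100 such genes tested in 10 lists, 51 passed the test as higher and 15 as lower, beside 31.0% and 31.2% of all features, and their median log2 fold change was 0.40 against 0.044 for all features. No partner mRNA came near the members, since the lowest stood at -2.83.

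For the snRNPs, all 7 genes of the Sm ring, which binds U1, U2, U4 and U5, were higher (median 0.78), led by SMD1 at 1.73 (SE 0.33, edgeR adjusted p = 1.03e-04) and SMD2 at 1.36 (SE 0.22, adjusted p = 1.35e-05). SMD1 rested on 3 and 13 counts in total RNA, against 846 and 880 in poly(A) RNA, and stood at 1.23 without total RNA replicate 1 and at 2.91 without total RNA replicate 2. Of the 8 LSm genes, whose ring holds the 3′ end of U6 or, with LSM1, acts in mRNA decay, 5 were higher and 0 lower (median 0.92, and 0.52 without total RNA replicate 1), with LSM2 at 1.39 (SE 0.15) and LSM5 at 1.34 (SE 0.19). U1 proteins had 5 of 10 higher and 1 lower (median 0.33), with NAM8 at -1.08 (SE 0.11) and PRP40 at 0.66 (SE 0.12). U2 proteins had 6 of 12 higher and 2 lower (median 0.44), with YSF3 at 1.55 (SE 0.48) and RDS3 at 1.40 (SE 0.35), both on 12 or fewer counts per total RNA library. Without total RNA replicate 2 YSF3 did not pass (1.53, adjusted p = 0.0652, edgeR) and RDS3 was at 2.48, and without replicate 1 RDS3 was at 0.92. The tri-snRNP list had 5 of 16 higher and 5 lower (median 0.056), close to the 31.0% and 31.2% of all features. Its large subunits PRP8, the protein at the catalytic centre, and BRR2, the helicase that unwinds U4 from U6, were lowest, at -2.00 (SE 0.09) and -1.67 (SE 0.09).

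Among the other particles, 4 of 6 SRP protein genes were higher and 0 lower (median 0.80). SRP14 and SRP21 were at 1.37 and 1.35 (SE 0.11 for both), so they and SCR1, their RNA, stood on opposite sides of 0. RNase P and RNase MRP proteins had 7 of 11 higher and 1 lower (median 0.58, and 0.92 without total RNA replicate 2), with POP5 at 1.47 (SE 0.13) and POP6 at 1.28 (SE 0.25). Of 3 telomerase protein genes EST3 rose by 1.13 (SE 0.14), and EST2, the reverse transcriptase, had -0.40 and did not pass (adjusted p = 0.0928), though it passed narrowly among features with at least 10 CPM in 2 libraries (-0.45, adjusted p = 0.0488, edgeR). RNA polymerase III factors had 5 of 10 higher and 1 lower (median 0.34), with TFC8 at 0.72 and TFC7 at 0.57 (SE 0.15 and 0.13), both subunits of TFIIIC.

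Of the factors that end, trim or survey these RNAs, 6 of 17 were higher and 5 lower (median 0.23, and 0.37 without poly(A) replicate 1), near the 31.0% and 31.2% of all features. NRD1 and NAB3, RNA-binding proteins of the complex that ends transcription of snRNA and snoRNA genes, were lowest at -2.83 (SE 0.11, adjusted p = 1.09e-15) and -1.72 (SE 0.10, adjusted p = 2.91e-12). NRD1 had 395 and 680 counts in total RNA against 2299 and 2559 in poly(A) RNA, without overlap after normalisation. With library totals in place of TMM the decreases of NRD1, NAB3, PRP8, BRR2 and NAM8 turned to increases, since the median of all features moved to 5.34 on that scale.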

How the data were processed

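Total RNA and poly(A) RNA of exponentially growing yeast were sequenced in 2 biological replicates each, per the labels, after 14 cycles of PCR. The deposited table holds raw read counts per annotated feature, per the file headers. The submitters' processing notes name build R64 and the tools cutadapt 1.18, FastQC 0.11.8 and Bowtie2 2.3.4.3, with no roles. The counting program and its use of strand are not given in the sources used here, so reads of overlapping or antisense genes are uncertain. Of 7382 features 622 are joined names, and all columns were matched to a sample.

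Members were matched by name, ignoring case, and lengths and sequences came from RefSeq build R64. The test was edgeR's quasi-likelihood test (edgeR 4.0.16, R 4.3.3) on the whole table, after filterByExpr and TMM, with Benjamini-Hochberg adjusted p below 0.05. The common biological coefficient of variation was 0.0612. The SE was obtained as the size of the log2 fold change over the root of F. The procedure was tried on simulated counts of coding genes alone, with a similar make-up in both fractions. That simulation did not cover the difference in rRNA between the fractions. Shares and ratios used Python 3.11.15 and scipy 1.17.1. Alternatives were DESeq2 1.42.0, other scalings, filters, a replicate block, joined counts and leaving out each library. Replicate pairs of each fraction differed beyond sampling noise, at 4.00 and 27.7 times the expected chi-square. Partner genes named are the 2 of each list with the largest absolute fold change, and nearest features are 2 per member. The members and lists were chosen with earlier results of these data known.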

Additional observations from a re-analysis of the deposited data

How the results depend on the processing

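The decreases of LSR1, snR19, SCR1, RPR1 and NME1 kept their direction and passed the test under all 13 alternatives, with log2 fold changes from -8.84 to -3.44, -7.69 to -2.28, -9.76 to -4.37, -7.17 to -1.81 and -7.25 to -1.88. snR14 could be tested in 12, was between -6.57 and -0.70, and did not pass with library totals (-0.70, adjusted p = 0.0746). Leaving out 1 library at a time gave -6.57 to -5.53 for snR14 and changed no member's call. The count of features lower in poly(A) RNA was 2164, against 75 with library totals and 1279 with scaling to counts outside rRNA, and the count higher was 2153, against 6860 and 3725. With library totals NAM8, PRP8, BRR2, EST2, NRD1 and NAB3 turned to 4.23, 3.31, 3.64, 4.91, 2.48 and 3.59, and EST2 was 0.12 with scaling to counts outside rRNA. The median of the telomerase protein genes was -4.37e-05 with at least 10 CPM in 2 libraries and ran from -0.045 to 0.20 when 1 library was left out, lowest without total RNA replicate 1. As log2 shares, snR6 and snR7-L were at -2.87 and -3.28 per counts outside rRNA, and snR7-L at -4.32 with joined counts, against 1.93 and 1.52 per all counts. The log2 share of snR14 ran from -1.33 to -0.27 when 1 library was left out. With a replicate block, 6 members were lower, as without it. There were 7 with no low-count filter, where snR6 was added, and 7 with joined counts, where snR7-L was added at -9.61 (adjusted p = 8.43e-24, edgeR). There were 5 with library totals and 5 with at least 10 CPM in 2 libraries, each without snR14. RPR1 and NME1 passed that filter of 10 CPM through total RNA alone, with at most 8.67 and 6.85 CPM in poly(A) RNA. The replicate numbers are shared between the fractions, but nothing in the labels links them, and deviations of same-numbered libraries correlated at 0.188 across 6089 features. Depth limits snR6, snR7-L and snR14.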
